A study of Mus musculus with 53 samples.

Results

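The arrays described here measured the response of SS40 cells to *miR-214*. SS40 is a mouse synovial sarcoma line, grown from a tumor that arose in a nude mouse from BALB/c embryonic mesenchymal cells carrying the human fusion gene *SS18-SSX1* on a retrovirus, and every SS40 array therefore comes from cells that express the fusion. Of the 53 arrays of the series, 8 were chosen by their labels, 4 of SS40 cells transfected with *miR-214* and 4 of SS40 cells transfected with a negative control oligonucleotide (NC). All 8 cultures were kept in DMEM with 10% fetal bovine serum, and the methods name the transfected agent as mmu-miR-214 5p/3p. The time between transfection and harvest was not given in the sources used here. A second line, SS64 in the labels, had 4 arrays with *miR-214* and 4 with its own NC, and its values are given only beside those of SS40. The study's text names its second line SS60, and whether the names mean 1 line is not settled by the sources used here. SS40 is a single line, nothing in the labels says that its replicates were separate transfections, and the p-values below measure the spread between arrays, which may be technical.

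*miR-214* is a microRNA, a short RNA that is loaded into an Argonaute protein and pairs through its seed, the bases near its 5′ end, with sites that lie mostly in the 3′ untranslated regions of messenger RNAs. Paired messengers are degraded or translated less, so that direct targets tend to lose RNA while genes downstream of them can move either way. The gene of *miR-214* lies within *Dnm3os*, a long noncoding RNA transcribed antisense to *Dnm3*, which is active in mesenchyme and in several cancers. Its hairpin of 110 bases maps to chr1:162223368-162223477 (GRCm38.p6, plus strand), inside the annotated spans of *Dnm3os* and *Dnm3*. The mature strands are printed below because the seed (bases 2 to 8, in capitals) is the part that recognises a target, and mmu-miR-761 is shown because it was the other mature mouse microRNA, among 1679 in RefSeq, with the seed of the 3p strand. No other had the seed of the 5p strand.
mmu-miR-214-3p (chr1:162223438-162223459, plus strand): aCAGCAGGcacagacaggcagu
mmu-miR-214-5p (chr1:162223397-162223418, plus strand): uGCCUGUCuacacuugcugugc
mmu-miR-761 (chr4:109017669-109017690, plus strand): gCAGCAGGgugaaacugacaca
The letters that would pair with the whole seed, read 5′ to 3′ on a messenger, are CCUGCUG for the 3p strand and GACAGGC for the 5p strand. Untranslated regions were not analysed here, and no gene below is called a target from its change.

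The arrays carry probe sets for messenger RNA and not for the mature microRNA, so the transfection cannot be checked on the level of *miR-214* itself. Of the 7 probe sets tested for *Dnm3*, *Dnm3os* and their regulators *Twist1* and *Twist2*, 0 passed by limma (1 was higher at an unadjusted p under 0.05, *Twist2*, which changed by 0.36), and both probe sets of *Dnm3os* were dim, with NC means of 4.03 and 4.98 on the log2 scale against a floor of 3.55. Some markers of synovial sarcoma and of mesenchymal cells were bright. Vimentin (*Vim*) probe sets had NC means of 12.43 to 12.67, 3 of the 4 *Cd44* probe sets were at 10.35 or above, and *Tle1*, a marker of synovial sarcoma, was at 8.83. Others on the list were dim, among them *Sox2* (NC mean 3.57), *Thy1* (5.03) and *Bcl2* (5.48 and 5.91). Summed over all 30 probe sets, the list ranged from 28890 to 32170 in NC and from 31200 to 31970 with *miR-214*. These sums rest mostly on the brightest probe sets. The sums of markers of other cell types that a tumor line could carry were far lower. Macrophage markers summed to 395.6 to 433.9 in NC and 381.9 to 471.8 with *miR-214*. On their list the leukocyte gene *Ptprc* had an NC mean of 3.80, while *Cd14* was the brightest, at 7.52 in NC and 7.37 with *miR-214*. Adipocyte markers summed to 419.5 to 436 in NC and 313.4 to 421.6 with *miR-214*, while the sums of endothelial, mast cell, granulocyte and muscle markers all lay between 167.7 and 466.5 and overlapped between the groups. No probe set of these 6 lists passed by limma, with at most 2 in a direction at an unadjusted p under 0.05 in any list. In bulk RNA, fewer cells of a kind and less RNA per cell cannot be told apart.

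NC replicate 2 and *miR-214* replicate 4 stood apart from the other arrays. NC replicate 2 had a 3′ to 5′ signal ratio of *Actb* of 0.81 on the log2 scale, where the other 7 lay between 0.16 and 0.25, a *Tfrc* ratio of 2.47 against 0.56 to 1.36, and an 18S ribosomal RNA signal of 8.98 against 11.09 to 11.44. *miR-214* replicate 4 was the only array far out on the first principal component, which held 38.5% of the variance, and its mean correlation with its own group was 0.979, against 0.988 to 0.993 for the other 7 arrays. No difference of the ratios between the groups was detectable (*Gapdh* p = 0.514, *Actb* p = 0.943, *Tfrc* p = 0.20, exact two-sided permutation tests of 4 against 4, for which the smallest p possible is 0.0286). Both arrays were kept, and values without them (3 against 3 arrays) are given where results rest on them. Their part in the results was otherwise not tested.

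**Figure D1:**
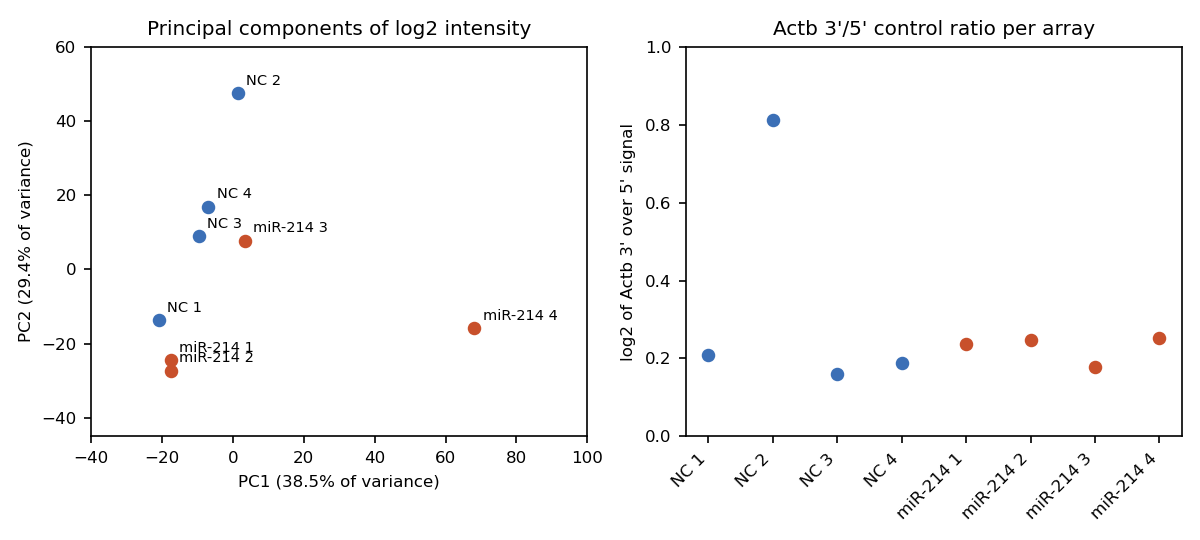
Left, the 8 SS40 arrays on the first 2 principal components of log2 intensity (NC in blue, miR-214 in orange-red). Right, the *Actb* control signal at the 3′ end over that at the 5′ end, as log2, for each array. miR-214 replicate 4 lies alone on the first component at 68.1, and NC replicate 2 lies at 47.6 on the second component and has the highest ratio, 0.81.

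*miR-214* changed a small part of the transcripts measured in SS40, and more fell than rose. Of 37456 probe sets tested, 193 (0.515%) were lower and 67 (0.179%) were higher with *miR-214* at an adjusted p under 0.05, and these are written as fallen or risen below. The falls covered 148 named genes and the rises 52. A fold change over 2 was reached by 51 of the falls and 9 of the rises, with log2 changes from -2.17 to -0.34 among the falls and from 0.33 to 1.39 among the rises. The median change over all probe sets tested was -0.01, and 2197 were lower and 1289 higher at an unadjusted p under 0.05. In all 260 probe sets that passed, the 4 arrays of one group did not overlap the 4 of the other, an arrangement that 5.01% of all tested probe sets showed as lower and 2.97% as higher. Without NC replicate 2 and *miR-214* replicate 4, 478 passed as lower and 212 as higher, and 186 of the 193 falls and 66 of the 67 rises passed again. The counts depended on single arrays. Leaving out 1 of the other 6 or NC replicate 2 gave 61 to 111 falls and 17 to 32 rises, while leaving out *miR-214* replicate 4 gave 488 and 192. Passing without each of the 8 arrays in turn was met by 58 falls and 15 rises.

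**Figure D2:**
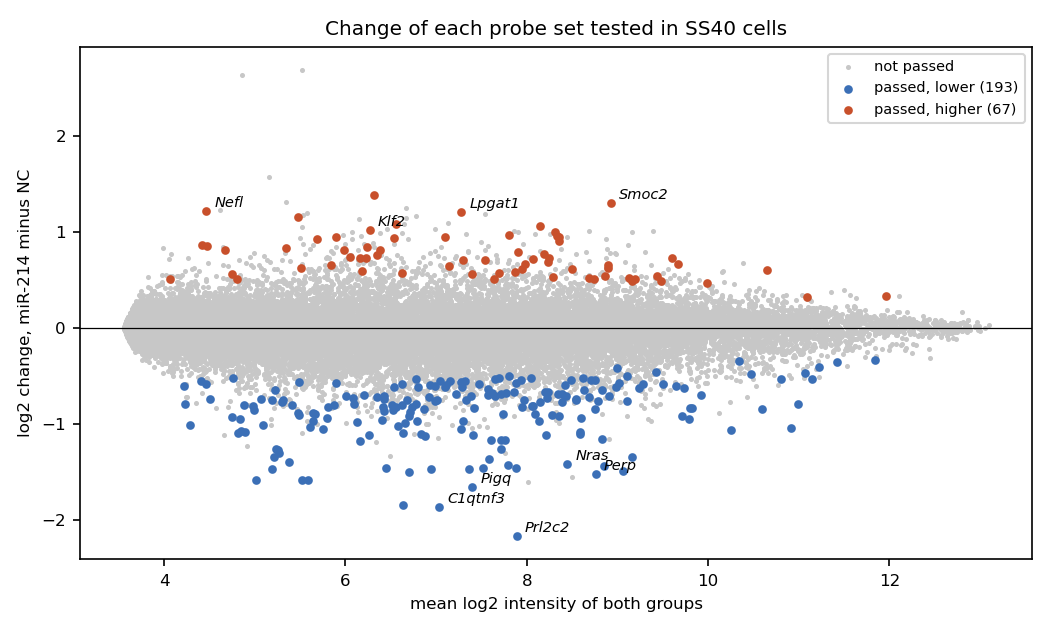
Change of each of the 37456 probe sets tested (log2 intensity, miR-214 minus NC) against its mean log2 intensity over both groups; 193 probe sets passed as lower (blue) and 67 as higher (orange-red). The falls reach -2.17 (*Prl2c2*) and the rises 1.39 (*Smoc2*).

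The largest fall was at a probe set for *Prl2c2* (proliferin), a secreted placental hormone of the prolactin family. Its log2 intensity was 8.92, 9.01, 9.01 and 8.95 on the 4 NC arrays and 6.52, 6.78, 7.36 and 6.56 on the 4 *miR-214* arrays, a change of -2.17 ± 0.17 (SE, n = 4 a group, adjusted p = 0.00084). Every *miR-214* array lay more than 1 log2 unit below the lowest NC array. The proliferin genes are near-identical copies, so the copy that changed is uncertain. *C1qtnf3*, which encodes a secreted C1q/TNF-related protein, was at 7.75, 8.03, 8.07 and 8.03 in NC and at 6.30, 6.19, 6.56 and 5.37 with *miR-214*, and fell by 1.87 ± 0.23 (SE, adjusted p = 0.0072). *miR-214* replicate 4 was the lowest of its group there, and without both arrays that stood apart the fall was -1.60 (adjusted p = 0.0016). *Perp*, a membrane protein of desmosomes and a p53 target, was at 9.41, 9.65, 9.48 and 9.55 in NC and at 7.98, 8.06, 7.90 and 8.04 with *miR-214*, a fall of 1.53 ± 0.09 (SE, adjusted p = 0.00037) with little spread in either group.

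The 15 largest falls of named genes also included *Krtap1-5*, a keratin-associated protein of hair (-1.50), *Sbsn*, suprabasin of keratinocytes (-1.46), *Aqp5*, a water channel of glands (-1.43), *Npnt*, nephronectin, a matrix ligand of an integrin (-1.47), *Angptl7*, a secreted angiopoietin-like protein (-1.36), and *Il7*, a growth factor of lymphocytes (-1.39). The desmosome gene *Dsp* fell by 0.85 and the keratin gene *Krt19* by 0.73. *Krt19* was 1 of 14 tested probe sets of the epithelial markers and the only one to pass, and the summed signal of these markers was 444.8 to 505.6 in NC and 409.8 to 480 with *miR-214*, with *Cdh1* at the floor on 7 of the 8 arrays. *Nipal1*, a magnesium transporter, fell by 1.47, and there *miR-214* replicate 4 was at the floor (3.55, where the other 3 arrays were at 4.63 to 4.90).

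The largest rises were smaller. *Smoc2*, which encodes a secreted calcium-binding matrix protein, rose at both of its probe sets. At 1415935_PM_at it was 8.35, 8.28, 8.24 and 8.25 in NC and 9.50, 9.53, 9.50 and 9.78 with *miR-214*, a change of 1.30 ± 0.09 (SE, adjusted p = 0.00064), and at 1431362_PM_a_at it rose by 1.39 ± 0.19 (SE, adjusted p = 0.011), where NC replicate 2 was the lowest array at 5.05. *Lpgat1*, an acyltransferase of phospholipid synthesis, rose by 1.21 ± 0.10 (SE, adjusted p = 0.00084), from 6.62, 6.67, 6.72 and 6.68 to 7.79, 7.88, 8.04 and 7.81, and its other 3 probe sets did not pass. *Nefl*, the light neurofilament chain, rose by 1.22 from a level near the floor (NC mean 3.85). *H2-K1*, a classical MHC class I heavy chain, rose at 3 of its 4 tested probe sets, by 1.00, 0.96 and 0.73. These sets may also bind messengers of related class I genes, so the gene is uncertain, and the nonclassical class I gene *H2-T23* fell by 0.91 at one probe set. Other genes rose at 1 probe set only. *Rian*, a noncoding RNA of the imprinted *Dlk1* cluster, rose by 0.94, while its other probe sets changed by 0.47 and -0.05 without passing. The adhesion molecule *Alcam* rose by 0.95, and its second probe set changed by 0.99 (adjusted p = 0.55). The nucleotide sugar transporter *Slc35a3* rose by 0.94 at 1 of 4 probe sets, and the others changed by 0.72, 0.05 and -0.12 without passing.

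**Figure D3:**
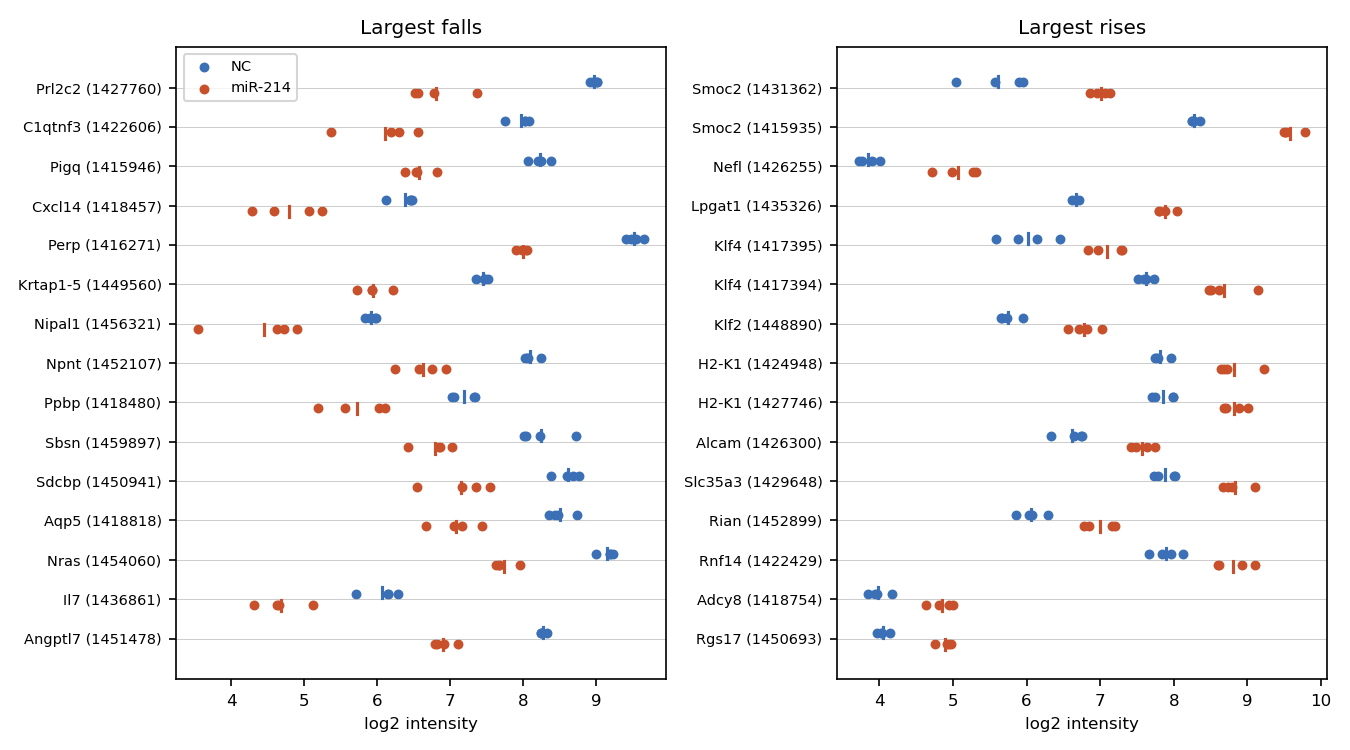
Log2 intensity on each array for the 15 largest falls and the 15 largest rises among probe sets that passed and had a named gene (NC in blue, miR-214 in orange-red; dots are arrays, short lines are group means, n = 4 a group). In each row the 2 groups do not overlap; miR-214 replicate 4 lies lowest of its group in *C1qtnf3* (5.37) and *Nipal1* (3.55).

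The study followed up predicted *miR-214* targets that it had drawn from genes lower with *miR-214* in SS40 and in a second line, so that their direction here is not independent evidence and is given as a description. Of these candidates, 10 genes were measured by 29 tested probe sets. As a group they were mostly lower with *miR-214*, and 23 of 29 changes were below 0, with a median of -0.37 against -0.01 over all probe sets tested. Of the 29, 4 probe sets of 4 genes passed as lower and 0 as higher, where 0.515% of all probe sets tested passed as lower. In 12 of the 29 the *miR-214* arrays all lay under the NC arrays, as they did in 5.01% of all probe sets tested. Because the candidates were drawn from genes that were lower, nothing is read from these shares. Without the arrays that stood apart, 8 passed as lower. In SS64, 15 of the 29 passed as lower.

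Each of the 4 genes that passed did so at a single probe set. *Tpp1*, tripeptidyl peptidase of the lysosome, was at 7.82, 7.78, 7.82 and 7.79 in NC and at 6.86, 6.91, 6.70 and 6.53 with *miR-214* at probe set 1434768_PM_at, and fell by 1.05 ± 0.11 (SE, adjusted p = 0.0026). Its other probe set, 1448313_PM_at, changed by -0.41 (adjusted p = 0.096), and its groups did not overlap either. Without both arrays that stood apart, the second probe set passed as well (-0.52, adjusted p = 0.0019). *Timp2*, an inhibitor of matrix metalloproteinases, fell at 1454677_PM_at from 11.31, 11.44, 11.39 and 11.41 to 10.50, 10.58, 10.59 and 10.74, a change of -0.79 ± 0.07 (SE, adjusted p = 0.0013). A second bright probe set of *Timp2*, 1460287_PM_at, was at 11.92, 11.98, 11.95 and 11.92 in NC and at 11.85, 11.88, 11.94 and 12.15 with *miR-214*, so that its groups overlapped and its change was 0.01 ± 0.07 (SE, adjusted p = 0.98). The other 3 probe sets of *Timp2* changed by -0.62, -0.55 and -0.51 without passing, and at all 3 NC replicate 2 was the lowest NC array.

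*Fbxo3*, the substrate-binding subunit of an SCF ubiquitin ligase, fell at 1455047_PM_at from 8.59, 8.98, 8.82 and 8.84 to 7.81, 7.93, 7.77 and 8.05, by 0.92 ± 0.11 (SE, adjusted p = 0.0071), while its other 3 probe sets ranged from -0.29 to 0.16 and did not pass. *Nomo1*, a membrane protein of the endoplasmic reticulum, fell by 0.74 ± 0.11 (SE, adjusted p = 0.014) at the dim probe set 1451169_PM_at (NC mean 4.88), and its bright probe set 1451170_PM_s_at changed by -0.55 (adjusted p = 0.081), or by -0.63 (adjusted p = 0.0034) without the arrays that stood apart. The remaining 6 genes did not pass at any probe set. The transcription factor *Plagl2* came nearest, at -0.56 (adjusted p = 0.053) for 1417517_PM_at, followed by the ubiquitin ligase *Chfr* at -0.48 (adjusted p = 0.068) for 1433550_PM_at. Both passed without the 2 arrays (adjusted p = 0.029 and 0.031). The lowest change was -0.45 for *Foxo4*, a forkhead factor, -0.67 for *Lats2*, a kinase of the Hippo pathway, -0.37 for *Ezh1*, a methyltransferase of Polycomb repressive complex 2, and -0.14 for *Cbl*, a ubiquitin ligase, with adjusted p of 0.10, 0.12, 0.21 and 0.77. None of the 29 probe sets differed in response between SS40 and SS64 at an adjusted p under 0.05, the lowest being 0.13 for 1448313_PM_at of *Tpp1*.

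**Figure D4:**
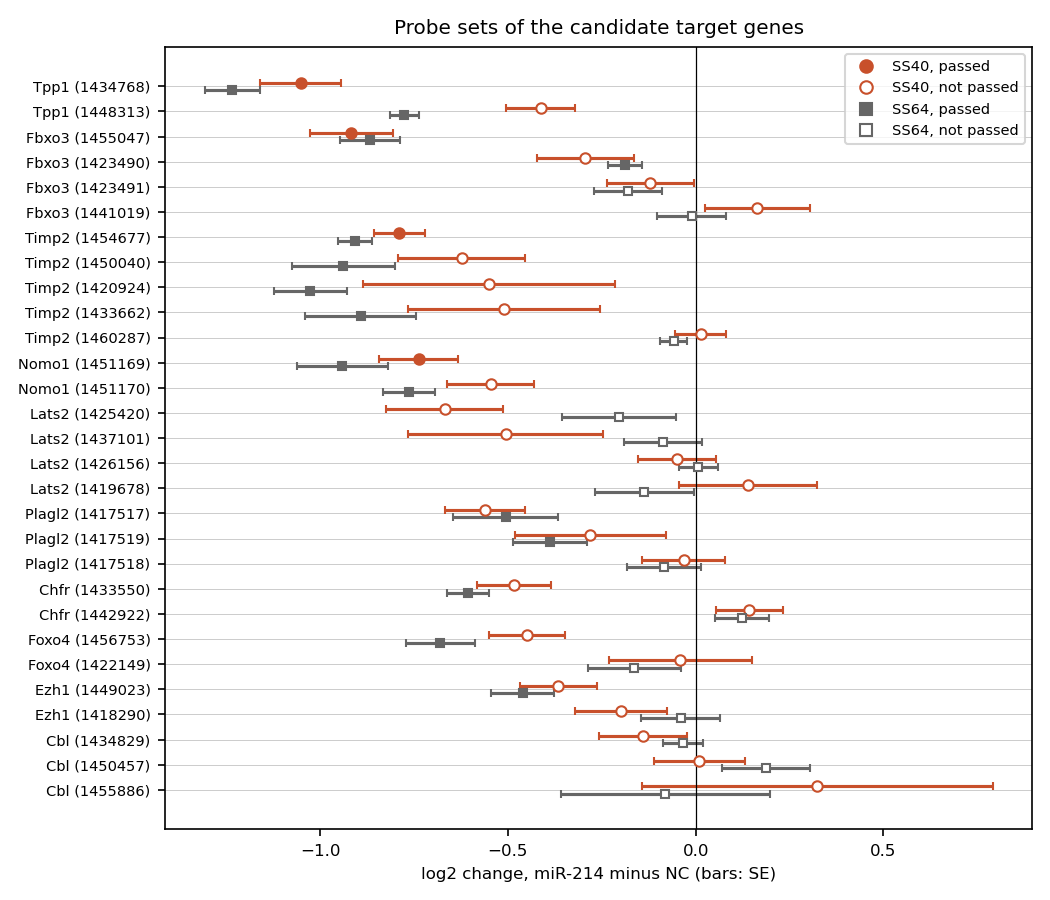
Log2 change with miR-214 at the 29 probe sets of the candidate genes in SS40 (orange-red circles) and SS64 (grey squares), with SE as bars (n = 4 arrays a group); filled symbols passed at an adjusted p under 0.05. In SS40, 1 probe set each of *Tpp1*, *Fbxo3*, *Timp2* and *Nomo1* passed, and the bright *Timp2* probe set 1460287_PM_at lies at 0.01.

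Several probe sets of a gene read different stretches of its messengers, mostly near 3′ ends, and their changes were not always alike. Of the 148 genes that fell, 90 had several probe sets tested. In 4 of these all probe sets passed, and in 86 at least one did not. Missing the threshold is not in itself a difference from the probe set that passed, and such differences were not tested. For *Coprs* and *Vgll3*, probe sets that did not pass changed by -1.56 and -0.72, against -1.09 and -0.65 at ones that passed. In 21 of the 90 another probe set had a change above 0, and in 0 did another pass as higher. In 19 of the 86 the least changed probe set was not dim (NC mean of 8 or more), and in 7 of these it lay within 0.1 of no change. The widest gap among these 7 was that of *Sdcbp*, the scaffold protein syntenin, which fell by 1.46 ± 0.20 (SE, adjusted p = 0.011) at 1450941_PM_at, from 8.38, 8.77, 8.60 and 8.69 to 7.35, 7.17, 7.54 and 6.54. At 1423332_PM_at *Sdcbp* was at 10.77, 10.86, 10.97 and 11.02 in NC and at 10.77, 10.76, 10.95 and 11.11 with *miR-214*, a change of -0.01 ± 0.09 (SE). In SS64 the first probe set changed by -1.67 and the second by -0.07. *Cct4*, a chaperonin subunit (-1.06 and -0.04), *Tmem167* (-0.89 and -0.05), *Rps20*, a ribosomal protein (-0.79 and -0.02), *Anp32e* (-0.50 and 0.08) and *Kmt5a* (-0.41 and -0.01) were the others beside *Timp2*. *Pigq*, which works in the first step of GPI anchor synthesis, had the widest gap of all. It fell by 1.66 ± 0.12 (SE, adjusted p = 0.00064) at 1415946_PM_at, from 8.07, 8.38, 8.20 and 8.25 to 6.55, 6.53, 6.81 and 6.38, and changed by 0.02 at 1426056_PM_at, which was near the floor in NC (mean 3.90). *Car3* (-1.34 and -0.02), *Npnt* (-1.47 and -0.21) and *Dnajc3* (-1.02 and 0.22) followed, the unmoved probe set being dim for *Car3* and *Npnt* and bright (NC mean 9.06) for *Dnajc3*. Of the 52 genes that rose, 36 had several probe sets, and in 2 all passed.

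Of 65 tested probe sets of 25 genes known from other work as direct targets of *miR-214*, 3 of 2 genes passed as lower (0.515% over all probe sets tested) and 0 as higher, with a median of -0.04. *Nras*, a small GTPase of the RAS family that passes growth signals to the MAP kinases, fell at 2 of its 3 probe sets. At 1454060_PM_a_at it was at 9.00, 9.20, 9.18 and 9.23 in NC and at 7.67, 7.63, 7.67 and 7.95 with *miR-214*, a fall of 1.42 ± 0.10 (SE, adjusted p = 0.00064), and at 1422687_PM_at it fell by 1.17 ± 0.14 (SE, adjusted p = 0.0065). The third set, 1422688_PM_a_at, changed by -0.56 (adjusted p = 0.26). *Galnt7*, a glycosyltransferase that starts mucin-type sugar chains, fell by 0.81 ± 0.08 (SE, adjusted p = 0.0026) at 1 of 3 probe sets, from 8.50, 8.46, 8.50 and 8.45 to 7.73, 7.62, 7.70 and 7.62. The other 2 changed by -0.67 and -0.62, with NC replicate 2 the lowest NC array at both.

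Among the cytokine genes several fell and none rose. Of 45 tested probe sets of 32 genes, 7 of 7 different genes fell, where 0.515% of all probe sets tested did. Changes below 0 were found in 37 of the 45, against 51.8% of all probe sets tested, and the median was -0.17. None of the 27 probe sets with an NC mean under 6 passed. *Cxcl5*, a neutrophil chemokine, was the brightest in NC of the 7 that fell, at 11.32, 11.42, 11.51 and 11.48, against 10.49, 10.52, 10.54 and 10.03 with *miR-214*, a fall of 1.04 ± 0.11 (SE, adjusted p = 0.0042). *Cxcl14*, a chemokine of epithelia and stroma, fell by 1.58 (adjusted p = 0.0079), *Ppbp*, a platelet chemokine of the neutrophil-attracting kind, by 1.46 (adjusted p = 0.011), and the monocyte chemokines *Ccl7*, *Ccl9* and *Ccl2* by 0.99, 0.77 and 0.48 (adjusted p = 0.0071, 0.0089 and 0.043). *Csf1*, the growth factor of macrophages, fell by 0.76 (adjusted p = 0.033) at 1 of its 4 probe sets. The second probe set of *Cxcl14* changed by -0.37 (adjusted p = 0.56) and that of *Ccl9* by -0.88 (adjusted p = 0.15), without passing. *Cxcl1* changed by -0.53 (adjusted p = 0.051) and passed without the 2 arrays (-0.61, adjusted p = 0.0025). *Lif* changed by 0.48 (adjusted p = 0.515) at 1421207_PM_at and passed as higher without them (0.68, adjusted p = 0.0083). In that fit 10 of the 45 probe sets passed as lower and 1 as higher. *Cxcl15*, the chemokine that the study set beside human interleukin 8, was at the lower end of detection. Its probe set 1421404_PM_at was at 3.96, 4.10, 4.22 and 4.37 in NC and at 3.90, 4.30, 4.04 and 4.35 with *miR-214*, so that the groups overlapped, and it changed by -0.01 ± 0.12 (SE, adjusted p = 0.99), and 1456428_PM_at changed by -0.07 ± 0.07 (SE, adjusted p = 0.79). A change of *Cxcl15* was not detectable at this signal. The count of cytokine falls was 3 without NC replicate 3 or without NC replicate 4.

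Of 53 lysosomal probe sets, 4 fell and 0 rose (median -0.04), where 0.515% of all probe sets tested fell and 0.179% rose. The count was 2 without any 1 of the 4 NC arrays or without *miR-214* replicate 3, and 6 without *miR-214* replicate 4. By each gene's brightest probe set, 2 genes fell. The list held *Neurl1a*, a different gene, where *Neu1* was meant, and *Neurl1a* did not pass. The 4 probe sets that fell were for *Tpp1*, *Lipa*, the acid lipase, at 2 of 3 probe sets (-1.12, adjusted p = 0.015, and -0.85, adjusted p = 0.0056), and *Scarb2*, a lysosomal membrane receptor (-0.67, adjusted p = 0.021). *Tpp1* was also a candidate that the study drew from genes lower with *miR-214*, so its fall is not independent evidence. *Gm2a*, an activator protein of lysosomal hexosaminidase that was not on the list, fell by 0.81. Of 47 probe sets for actin and adhesion, 3 fell and 0 rose (0.515% and 0.179% over all probe sets tested), all 3 for contractile proteins of smooth muscle and myofibroblasts. *Acta2*, smooth muscle actin, was between 10.99 and 11.06 on the NC arrays and between 10.04 and 10.35 with *miR-214*, a fall of 0.84 ± 0.08 (SE, adjusted p = 0.0015), *Myl9*, a myosin light chain, fell by 0.97 (adjusted p = 0.0057) and *Cnn1*, calponin, by 0.76 (adjusted p = 0.042). Integrins, *Vcl* and the other members of the list did not pass.

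Immediate early genes, which respond first to growth factors and stress, were higher at the middle of the list (median 0.32, with 8 of 29 probe sets below 0), but those that passed as higher were 3 probe sets of 2 Krüppel-like factors, where 0.179% of all probe sets tested passed as higher. The count was 1 without NC replicate 3 or NC replicate 4, and 9 without *miR-214* replicate 4. *Klf4* rose by 1.07 ± 0.15 (SE, adjusted p = 0.012), from 7.52, 7.62, 7.59 and 7.74 to 8.48, 8.51, 8.61 and 9.15, and by 1.08 ± 0.19 (SE, adjusted p = 0.037) at its second probe set. *Klf2* rose by 1.02 ± 0.13 (SE, adjusted p = 0.0075). *Fos* changed by 0.28 (adjusted p = 0.47) and the 2 probe sets of *Jun* by 0.48 and 0.46 (adjusted p = 0.09 and 0.19). Without the 2 arrays that stood apart, 9 of the 29 passed as higher and 1, *Dusp1*, as lower. Cholesterol synthesis and uptake showed a median of 0.26, with 3 of 21 probe sets higher (0.179% over all probe sets tested) and 0 lower. These were *Srebf2*, the transcription factor of the pathway (0.64, adjusted p = 0.033), *Sc5d*, a late enzyme (0.58, adjusted p = 0.049), and *Idi1*, an isomerase of the mevalonate route (0.51, adjusted p = 0.031). Without any 1 of the arrays other than *miR-214* replicate 4, 0 of the list passed, and the count was 4 without that array and 5 without both arrays that stood apart.

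The 65 probe sets of cell cycle genes, 62 of PI3K and AKT signalling, 51 of the Hippo pathway, 36 of the BCL2 family, 26 of p53 targets, 31 of interferon-stimulated genes, 28 of NF-kappaB, 54 of Wnt signalling and 49 of microRNA processing had 0 passing either way by limma. Their medians lay between -0.07 and 0.01. At an unadjusted p under 0.05, 1 to 6 were lower and 0 to 6 higher in each list apart from the p53 targets. Of the 26 probe sets of p53 targets, 8 were lower and 2 higher at that p, where 2197 of the 37456 probe sets tested were lower. No probe set named for p53 itself was among the 26. The 8 were 3 of *Ccng1*, 2 of *Sesn1* and 1 each of *Plk2*, *Trp53inp1* and *Zmat3*, with changes from -0.51 to -0.20 and adjusted p from 0.051 to 0.53. Without the 2 arrays that stood apart, these lists had at most 3 passing in 1 direction, in the Hippo pathway (*Amot*, *Ankrd1* and *Tead1*, all lower). The counts of 0 hold only for the members chosen. The Wnt list held no Wnt ligand, and *Wnt4* and *Wnt9a* fell by 0.90 and 0.89 at 1 of 2 probe sets each. *Igf1*, *Nfkbiz* and *Perp* were not on the PI3K, NF-kappaB and p53 lists, and fell by 0.59, 0.55 and 1.53. One probe set passed as lower for Hedgehog signalling (*Hhip*, an inhibitor of the pathway, -0.61), for TGF-beta (*Tgfb2*, a ligand, -0.65) and for the metalloproteinases and their inhibitors (*Timp2*), and 2 for the unfolded protein response (*Dnajc3*, and *Sdf2l1*, -0.73). One passed as higher for Polycomb repressive complex 2 (*Mtf2*, an accessory subunit, 0.56). Among fibrillar collagens and other matrix genes, *Col3a1* rose by 0.61 and *Col5a2* fell by 0.35.

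In SS64 the same transfection gave more calls, 2165 lower and 1401 higher of 37362 probe sets tested. The lines have controls of their own. Of the 193 falls in SS40, 181 were tested in SS64, where 148 had changes below 0 and 108 passed as lower, with a median of -0.43 (-0.79 in SS40). Of the 67 rises, 66 were tested, 60 had changes above 0 and 47 passed as higher, with a median of 0.53 (0.71 in SS40). The probe sets of *Tpp1*, *Timp2*, *Fbxo3*, *Nomo1*, *Nras*, *Galnt7*, *Lipa* and *Pigq* that fell in SS40 fell in SS64 as well. *Pigq* changed by -2.12 in SS64 and *Nras* at 1454060_PM_a_at by -1.40, and for neither did the test of the difference between the lines pass (adjusted p = 0.34 and 0.98). *Lipa* at 1423140_PM_at fell by 0.85 in SS40 and by 1.48 in SS64, and there the test of the difference passed (0.63, adjusted p = 0.0053). At 1450872_PM_s_at, where *Lipa* also fell in SS40, it did not pass (0.36, adjusted p = 0.62).

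The test of the difference itself passed at 236 of 38999 probe sets (0.605%), 106 more negative and 130 more positive in SS40. Of the 260 probe sets that passed in SS40, 67 were among them, 55 falls and 12 rises. Many of these falls were of genes hardly expressed in SS64. Of the 57 falls whose NC mean in SS64 was under 5 on the log2 scale or that were not tested there, 38 passed the test of the difference and 3 fell in SS64. Of the other 136, 17 passed the test of the difference and 105 fell in SS64. *C1qtnf3* was at the floor on all 8 SS64 arrays (difference -1.87, adjusted p = 0.0012), and *Cxcl14* was above it on only 3 of 8 (difference -1.58, adjusted p = 0.0015). *Perp* had an SS64 NC mean of 3.81 and a change of -0.00 there (difference -1.52, adjusted p = 0.00086), *Il7* one of 3.80 and a change of 0.08 (difference -1.47, adjusted p = 0.0018), and *Car3*, a carbonic anhydrase, one of 3.88 and a change of 0.22 (difference -1.57, adjusted p = 0.045). Where a gene is near the floor in SS64, a fall there could not be measured, and the difference then restates the fall in SS40. Of the 15 largest falls in SS40, 9 were at SS64 NC means under 5, 7 fell in SS64 and 11 passed the test of the difference. *Prl2c2* and *Npnt* (1452107_PM_s_at) were among the 11 though bright in SS64, with NC means of 12.6 and 8.33. There they fell by 0.73 and 0.41 (differences -1.44 and -1.06, adjusted p = 0.00086 and 0.017).

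Rises differed in another way. Of the 15 largest rises in SS40, 13 passed as higher in SS64 and 2 passed the test of the difference. *Smoc2* at 1415935_PM_at rose by 1.30 in SS40 and 0.49 in SS64 (difference 0.80, adjusted p = 0.00044). At its other probe set, 1431362_PM_a_at, the difference was 0.75 and did not pass (adjusted p = 0.19). *Adcy8*, an adenylyl cyclase, rose by 0.86 in SS40 from an NC mean of 3.99 and was above the floor on 1 of 8 SS64 arrays (difference 0.89, adjusted p = 0.00089). The collagen gene *Col3a1* and *Serpinf1*, which encodes the antiangiogenic factor PEDF, went opposite ways in the lines at 1 probe set each. These were the only rises in SS40 that passed as lower in SS64. *Col3a1* at 1427883_PM_a_at rose by 0.61 in SS40, from 10.31, 10.19, 10.45 and 10.44 to 10.89, 10.92, 11.01 and 10.99, and fell by 0.25 in SS64 (difference 0.86, adjusted p = 3.2e-05). At 1427884_PM_at it changed by 0.59 in SS40 and -0.12 in SS64 without passing in either line (difference 0.71, adjusted p = 0.068). *Serpinf1* at 1416168_PM_at rose by 0.49 and fell by 0.35 (difference 0.84, adjusted p = 0.00041), while its second probe set changed by 0.03 in SS40. *Foxc2*, a forkhead factor of mesenchyme, rose by 0.53 in SS40 and changed by -0.29 in SS64 (difference 0.83, adjusted p = 0.025). No fall of SS40 passed as higher in SS64.

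**Figure D5:**
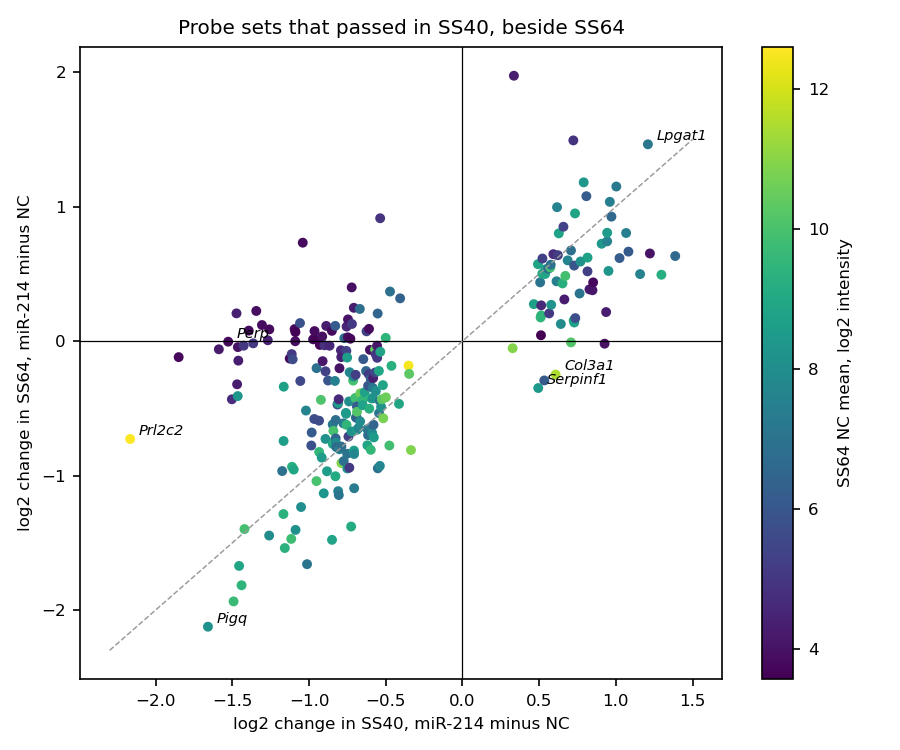
Log2 change with miR-214 in SS64 against that in SS40 for the 247 probe sets that passed in SS40 and were tested in SS64, coloured by their mean log2 intensity in SS64 NC; the dashed line marks equal changes. Many falls at dark points, genes near the floor in SS64, lie close to 0 on the SS64 axis, as *Perp* does, and *Pigq* lies at -1.66 and -2.12.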

How the data were processed

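RNA of the cultures was hybridised to Affymetrix mouse GeneChips. The deposited table holds 1 linear intensity per probe set and array, which the authors had summarised; MAS5 appears in the submitters' processing notes, with no version. Scaling and background correction were not given in the sources used here. Values ran from 5.36 to 11034.

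Control probe sets (104 of 45141) were left out. Intensities under 11.7, a floor set as the middle value across all 53 arrays of their own 20th percentiles, were raised to it, and log2 was taken. A probe set was tested where 4 or more of the 8 arrays exceeded the floor, with limma 3.58.1 in R 4.3.3 (lmFit, eBayes with trend), Benjamini-Hochberg over all tested, threshold 0.05. Each probe set was kept apart. Differences between lines were an interaction term over 16 arrays. The array medians were 23.4 to 24.2, close to the floor, which compresses the changes of weakly expressed genes, and 4 arrays a group limit the precision.

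Of 45037 probe sets, 28898 had 1 symbol in the platform annotation (28689 updated by gene ID), 551 several and 15588 none; only the first were named. MicroRNA sequences came from RefSeq (GRCm38.p6). Members, gene lists and tests were chosen with earlier results of these data known. Genes named are the 15 largest rises and falls without overlap, the candidates, cytokine genes, up to 4 that passed per list, the 5 widest gaps between probe sets and the 5 largest line differences each way. *Cct4*, *Tmem167*, *Rps20*, *Anp32e*, *Kmt5a*, *Gm2a*, *H2-T23*, *Dsp*, *Fos*, *Jun*, *Dusp1*, *Vim*, *Cd44*, *Tle1*, *Sox2*, *Thy1*, *Bcl2*, *Ptprc*, *Cd14*, *Cdh1*, *Twist2*, *Amot*, *Ankrd1*, *Tead1*, *Ccng1*, *Sesn1*, *Plk2*, *Trp53inp1*, *Zmat3*, *Wnt4*, *Wnt9a*, *Igf1*, *Nfkbiz*, *Coprs*, *Vgll3* and *Neurl1a* were added after their values were seen. The pipeline was tested on simulated data. Alternatives are quantile or median scaling, other floors and filters, wider fits, the methods' t-test, no trend, a replicate block, leaving out arrays and, chosen after seeing the data, leaving out both arrays that stood apart and array weights. Plots come from Python 3.11.15 and matplotlib 3.10.9. MicroRNA levels, proteins, tumors and untranslated regions were not analysed here.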

Additional observations from a re-analysis of the deposited data

Results flagged for a closer look

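Among 118 groups of 4 values looked at (array ratios and named probe sets that passed), 12 had 1 array far from the other 3 by Dixon's ratio of gap to range, where chance gives about 1 in 20. The ratio was 0.884 for the median intensity in NC and 0.924 for the *Actb* ratio in NC, both through NC replicate 2, and 0.88 for the *Tfrc* ratio with *miR-214*, through replicate 3. For probe sets, *miR-214* replicate 4 was the far array in *Smoc2* (0.882), *Cxcl5* (0.915), *H2-K1* (0.869), *Car3* (0.978) and *Nras* (0.871), above its group in *Smoc2*, *H2-K1* and *Nras* and below it in *Cxcl5* and *Car3*. NC replicate 1 was the far array in *C1qtnf3* (0.855) and *Npnt* (0.833), NC replicate 2 in *Angptl7* (0.868) and NC replicate 3 in *Cxcl14* (0.925). All of these 9 probe sets passed again without NC replicate 2 and *miR-214* replicate 4.

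Among probe sets of named genes that passed in SS40 and in the test of the difference, the 5 largest interaction terms each way were flagged. The negative ones (log2, SS40 minus SS64) were -1.87 for *C1qtnf3*, -1.58 for *Cxcl14*, -1.57 for *Car3*, -1.52 for *Perp* and -1.47 for *Il7*. These 5 were at or near the floor in SS64, with NC means of 3.55 to 3.88 there, so that a fall in SS64 could not be measured and the terms restate the falls in SS40. The other 5 were 0.89 for *Adcy8*, 0.86 for *Col3a1*, 0.84 for *Serpinf1*, 0.83 for *Foxc2* and 0.80 for *Smoc2*. *Adcy8* was at or near the floor in SS64, where a rise that ended under the floor could not be seen.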

How the results depend on the processing

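The change kept its sign in all 260 probe sets that passed under every alternative, while the counts moved. Lower and higher calls were 193 and 67. They were 814 and 359 in 1 fit of both lines, 404 and 163 in 1 fit of all arrays, 2106 and 1377 by the methods' t-test unadjusted (60.5% lower, against 63.3% with array weights and 69.3 to 82.7% elsewhere) and 127 and 43 after Benjamini-Hochberg (32 and 5 with a fold over 2, against 51 and 9). They were 57 and 16 with the replicate block, 478 and 212 without both arrays that stood apart, 1392 and 807 with array weights (37 higher with a fold over 2), and 61 to 488 and 17 to 192 when 1 array was left out (37 to 49 and 6 to 10 with a fold over 2). The line differences, 106 more negative and 130 more positive in SS40, were 160 more negative with the higher floor, 69 and 82 with the replicate block, 234 and 282 without both arrays, and 69 to 233 and 83 to 239 when 1 array was left out. The replicate numbers did not pair the arrays, as same-numbered arrays deviated from their group means with correlations of 0.46, -0.28, 0.12 and 0.05 and not every array correlated best with its own number. Deviations were shared between the groups across other numbers. NC replicate 1 correlated at 0.54 with *miR-214* replicate 2 and at -0.56 with *miR-214* replicate 3, and NC replicate 4 at 0.32 with *miR-214* replicate 3. A grouping of arrays other than by replicate number was not modelled, and the cause was not tested. Counted in probe sets, without both arrays 8 of the candidates and 5 of the literature targets fell, and 5 for cholesterol and 9 immediate early ones rose. Counted in genes by their brightest probe set, 0 candidates, 1 literature target and 2 lysosomal genes fell. Leaving out 1 array gave falls at 3 to 8 candidate, 3 to 8 cytokine, 3 to 5 literature target, 2 to 6 lysosomal and 2 to 3 actin and adhesion probe sets, and rises at 0 to 4 cholesterol and 1 to 9 immediate early probe sets. Of 55 named probe sets that passed, 23 lost the call when some array was left out, 22 with the block, 3 with quantile scaling and 0 without both arrays.

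Some probe sets near 0 that had not passed changed sign. When 1 array was left out, the log2 change ran from -0.13 to 0.0077 for *Plagl2* (1417518_PM_at), -0.030 to 0.24 for *Lats2* (1419678_PM_at; -0.13 without both arrays and -0.10 with array weights), -0.13 to 0.0093 for *Lats2* (1426156_PM_at), -0.26 to 0.070 for *Foxo4* (1422149_PM_at), -0.083 to 0.034 for *Sdcbp* (1423332_PM_at), -0.029 to 0.069 for *Pigq* (1426056_PM_at), -0.065 to 0.0085 for *Car3* (1430584_PM_s_at), -0.097 to 0.081 for *Cbl* (1450457_PM_at) and -0.050 to 0.048 for *Timp2* (1460287_PM_at; -0.037 without both arrays and -0.054 with array weights). *Fbxo3* (1441019_PM_at) was at -0.0066 without both arrays. The cause was not tested. Seed matches in untranslated regions, with both of their alternatives, were not run. Signal over background limits the changes that can be measured at dim probe sets.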
